A study of Mus musculus with 25 samples.

Results

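The 10 transcription factors and co-regulators of Schwann cell myelination described here are Egr2, Sox10, Pou3f1, Pou3f2, Nab1, Nab2, Yy1, Zeb2, Nfatc4 and Srebf1. They were taken from a list of known regulators of Schwann cell differentiation, matched by symbol to the Ensembl identifiers of the count table, and they make up 10 of its 56956 genes. All 10 were matched, and all 10 passed the filter on low counts, with a log2 CPM (gene counts scaled to library size) above 1 in each of the 25 libraries.

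RNA was sequenced from the sciatic nerve of untreated mice of 5 groups, with 1 library per group at an age of 3, 5, 7, 9 or 12 weeks. C3 mice (B6.Cg-Tg(PMP22)C3Fbas/J, on C57BL/6J) carry 5 additional copies of human PMP22, whose duplication causes Charcot-Marie-Tooth disease type 1A, and their controls, WT-C3, are C57BL/6J mice. C22 mice (Tg(pmp22)C22Clh, on FVB/NRJ) carry 10 additional copies, and their controls, WT-C22, are FVB/NRJ mice. The group C3-cJunKO (C3-PMP22 c-JunP0Cre) is the C3 model with c-Jun deleted in Schwann cells by the Cre transgene of that label. The labels do not give the strain background or the number of PMP22 copies of this group. The C3 line is a spontaneous partial revertant of C22, both lines were bred heterozygously, and each library pooled nerves of 4 to 5 animals of both sexes. Strain and copy number therefore differ together between the models, and the 5 libraries of a group are 5 ages, so every SD and SE below holds any change with age as well as the spread between pools.

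Myelination by Schwann cells runs through a known order of regulators. SOX10 marks the lineage at all stages and, with the POU factors POU3F1 (Oct6) and POU3F2 (Brn2), turns on Egr2 (Krox20). Its product drives the myelin genes together with its partners NAB1 and NAB2. YY1 and the calcineurin-dependent factor NFATC4 act upstream of Egr2 or with SOX10, ZEB2 represses inhibitors of differentiation, and SREBP1, the product of Srebf1, controls genes of fatty acid synthesis. In normal nerve Pou3f1 is known to peak before myelination and to decline as myelin matures.

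In GRCm39, Sox10 is at chr15:79039108-79049469 and Egr2 at chr10:67371305-67378018. Pou3f1 and Pou3f2 are both on chromosome 4, at chr4:124550600-124554448 and chr4:22482780-22488366. Nab1 is at chr1:52494147-52539838 and Nab2 at chr10:127496786-127504458. Yy1 (chr12:108758842-108786074), Zeb2 (chr2:44873644-45007464), Nfatc4 (chr14:56060601-56071401) and Srebf1 (chr11:60089913-60113407) lie on 4 other chromosomes. Where they overlap other annotated genes the counts are less certain, since the strand setting of the counting is not given in the sources used here. Among the overlapping genes that were tested, Nab2 shares 1689 bases with Nemp1 and 77 bases with Stat6, Zeb2 shares 3599 bases with Zeb2os, and Srebf1 shares 114 bases with Rai1, all on the opposite strand.

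Promoter windows from RefSeq (GRCm38.p6), the 250 bases before a gene start, were available for 8 members, with 17 windows in all. Sox10 and Pou3f1 have no entry. Letters for EGR (GCGNGGGCG), the POU octamer (ATGCAAAT), SOX (ACAAAG and ACAATG), ZEB (CACCTG), SREBP (TCACNCCAC) and YY1 (AAGATGGC) were searched on both strands. The windows of Nab1, Nab2 and Egr2 are shown because Nab1 fell and Nab2 rose in both PMP22 models, and because Egr2 is a known target of the POU factors, which rose. Capitals mark EGR letters in Nab1 (chr1:52500449-52500698, minus strand) and the POU octamer in Egr2 (chr10:67537619-67537868, plus strand). The window of Nab2 (chr10:127666704-127666953, minus strand) held none of the letters searched.
Nab1: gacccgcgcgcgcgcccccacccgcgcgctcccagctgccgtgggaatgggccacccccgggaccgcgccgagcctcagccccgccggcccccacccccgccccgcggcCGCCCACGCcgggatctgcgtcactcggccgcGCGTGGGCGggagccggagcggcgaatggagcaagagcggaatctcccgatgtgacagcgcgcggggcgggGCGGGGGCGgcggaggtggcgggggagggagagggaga
Nab2: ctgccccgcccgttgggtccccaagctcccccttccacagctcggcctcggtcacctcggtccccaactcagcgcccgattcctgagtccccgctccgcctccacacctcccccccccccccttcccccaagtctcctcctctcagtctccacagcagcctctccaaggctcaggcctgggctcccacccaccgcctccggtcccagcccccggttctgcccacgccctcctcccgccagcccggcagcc
Egr2: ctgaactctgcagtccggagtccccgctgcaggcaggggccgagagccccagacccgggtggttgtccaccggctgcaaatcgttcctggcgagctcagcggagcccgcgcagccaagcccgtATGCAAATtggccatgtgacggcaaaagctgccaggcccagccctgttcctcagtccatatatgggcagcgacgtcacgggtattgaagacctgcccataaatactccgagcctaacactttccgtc

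Nab1 held the EGR letters 3 times, at 141 to 133 bases before the start on the opposite strand and at 109 to 101 and 38 to 30 bases on its own strand. Of all 32851 windows in the table, 4.70% held these letters at least once and 0.14% held them 3 times or more. The window of Nab1 is also rich in G and C, at 80.8% against a median of 52.4% over all windows. Egr2 held the octamer in 3 of its 5 windows, which overlap and share the same site, 127 to 120 bases before the start printed here. The octamer is in 1.60% of all windows. One of 4 windows of Zeb2 held the SOX letters ACAAAG, which 16.5% of all windows hold, and no other member window held any of the letters searched. These matches describe letters and not bound sites.

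The libraries held 2140142 to 49072746 counts on genes, with a median of 24663235. The C3 library at 9 weeks was the shallowest, and the lowest count of a member in it was 56, for Nfatc4. The targeted gene followed the labels: Jun was at 26.3 to 31.7 CPM in C3-cJunKO and at 93.8 to 125 CPM in C3. In WT-C3 Jun was at 51.3 to 72.4 CPM. Human PMP22 was at 10100 to 13940 CPM in C3, at 7867 to 16230 CPM in C3-cJunKO, at 9756 to 13900 CPM in C22 and at no more than 6.41 CPM in the controls, and the ranges of the 3 transgenic groups overlap. Markers of Schwann cells were present in every library, and summed skeletal muscle markers stood at 2080 to 8451 CPM in WT-C3 at 5 weeks, C3 at 12 weeks, WT-C22 at 5 weeks and C22 at 3 weeks. In bulk RNA, fewer cells of a type and less RNA per cell cannot be told apart.

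Per kilobase of exon, Sox10 was the most abundant member, at a mean of 153 CPM per kb over all libraries. Egr2 (52.0), Srebf1 (44.3) and Pou3f1 (43.7 CPM per kb) followed at similar levels, then Nab2 (22.8), Nab1 (14.6), Zeb2 (13.2) and Yy1 (13.0 CPM per kb). Pou3f2 (4.57) and Nfatc4 (3.14 CPM per kb) were the least abundant. Exon length here covers all annotated exons of a gene, so the order depends on the annotation. Zeb2 has the greatest length, at 22741 bases, and a mean of 299 CPM before division by it. The average for Pou3f1 hides a wide range between groups, shown in the plots of each gene by age.

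**Figure D1:**
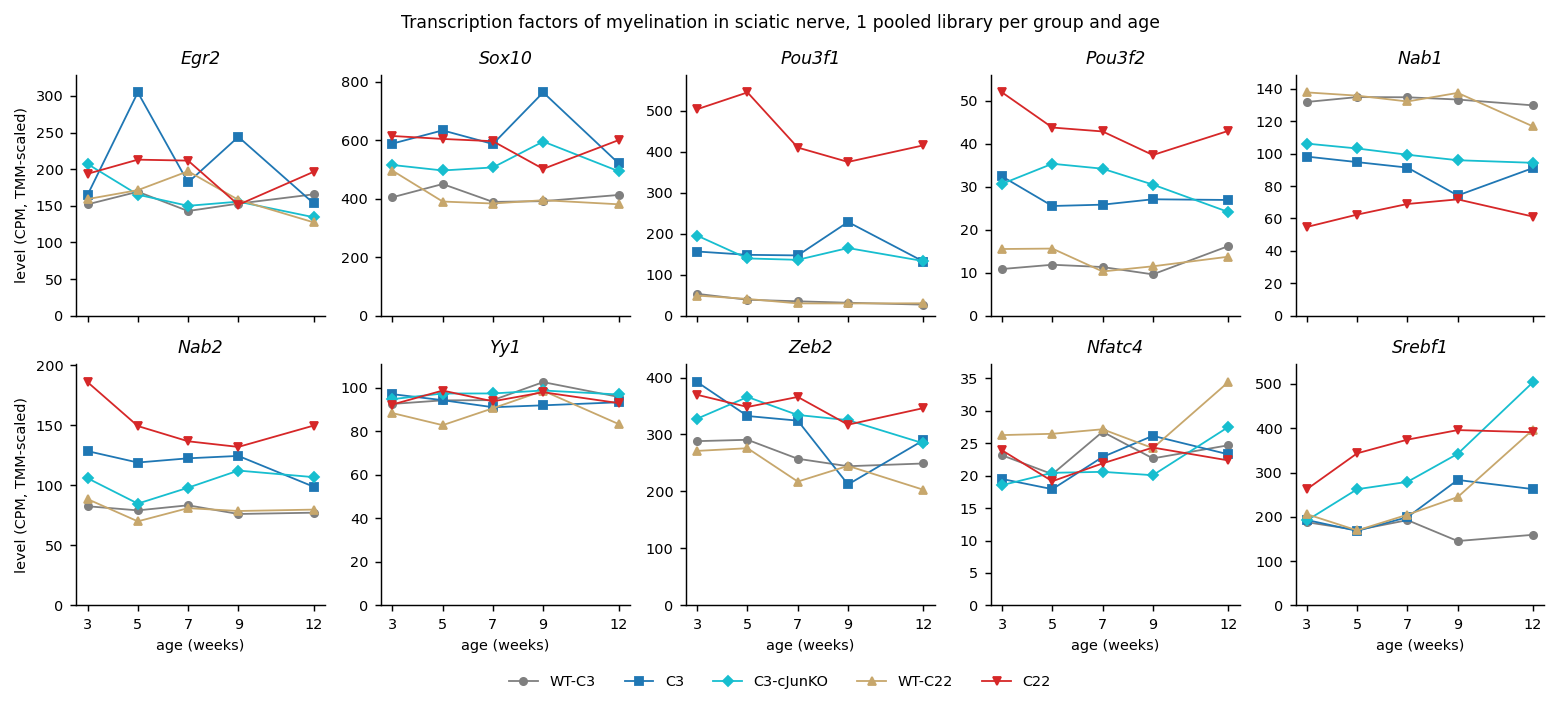
Level of each of the 10 genes (CPM, scaled by TMM factors, axis from 0) against age in weeks, 1 point per pooled library, with lines joining the ages of a group. The 5 C22 libraries lie between 375 and 545 CPM for Pou3f1, above every other library, and the same libraries lie lowest for Nab1, between 54.8 and 71.8 CPM.

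Series of 5 values run from the youngest to the oldest library of a group. The POU factors had the largest positive fold changes of the 10 members with additional PMP22. Pou3f1 was at 53.4, 38.9, 35.2, 31.7 and 27.1 CPM in WT-C3 and at 157, 149, 147, 229 and 132 CPM in C3. In WT-C22 it was at 49.1, 41.0, 30.1, 29.9 and 30.3 CPM, and in C22 at 504, 545, 410, 375 and 416 CPM. Every C3 library was above every WT-C3 library, and every C22 library was above all other libraries. The log2 fold change was 2.11 ± 0.19 (SE) in C3, a 4.32-fold difference with an adjusted p of 3.80e-05, and 3.64 ± 0.17 in C22, a 12.5-fold difference with an adjusted p of 5.75e-08 (quasi-likelihood F-tests of edgeR, p adjusted over all genes after Benjamini and Hochberg, n = 5 libraries per group).

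At each age the ratio of Pou3f1 between a model and its control was above 1. It was 2.94, 3.82, 4.18, 7.21 and 4.89 across the ages in C3, and 10.3, 13.3, 13.6, 12.5 and 13.7 in C22. The ratio was lowest at 3 weeks in both models, and the highest C3 ratio, at 9 weeks, comes from the shallowest library. Without that library the log2 fold change in C3 was 1.98.

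Pou3f2, a relative of Pou3f1 with overlapping function in Schwann cells, moved the same way at a lower level. It was at 10.9, 11.9, 11.3, 9.61 and 16.2 CPM in WT-C3 and at 32.4, 25.5, 25.8, 27.1 and 26.9 CPM in C3. In WT-C22 it was at 15.5, 15.6, 10.3, 11.5 and 13.7 CPM, and in C22 at 51.9, 43.8, 42.8, 37.4 and 43.0 CPM. Neither model overlapped its control, and Pou3f2 rose by 1.20 ± 0.14 on the log2 scale in C3 (adjusted p = 0.000189) and by 1.72 ± 0.13 in C22 (adjusted p = 1.36e-06).

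The NAB co-regulators moved in opposite directions. NAB1 and NAB2 both bind EGR proteins and modify their activity, and in peripheral nerve they are partners of EGR2. Nab1 was at 132, 135, 135, 133 and 130 CPM in WT-C3 and at 98.2, 94.8, 91.4, 74.2 and 91.2 CPM in C3. In WT-C22 it was at 138, 136, 132, 138 and 117 CPM, and in C22 at 54.8, 62.4, 69.0, 71.8 and 61.2 CPM. Both models lay wholly below their controls, and C22 lay wholly below C3. Nab1 fell by 0.56 ± 0.08 on the log2 scale in C3 (adjusted p = 0.000644) and by 1.05 ± 0.08 in C22 (adjusted p = 1.97e-06).

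Nab2 was at 82.7, 79.2, 83.5, 76.2 and 77.3 CPM in WT-C3 and at 129, 119, 123, 125 and 98.9 CPM in C3. In WT-C22 it was at 88.6, 70.1, 81.1, 78.7 and 79.9 CPM, and in C22 at 186, 150, 137, 132 and 150 CPM. Again neither model overlapped its control, now with the models above. Nab2 rose by 0.57 ± 0.07 on the log2 scale in C3 (adjusted p = 0.000444) and by 0.92 ± 0.10 in C22 (adjusted p = 2.44e-05). Nemp1, which overlaps Nab2 on the other strand, also rose, by 0.68 ± 0.17 in C3 and 1.35 ± 0.13 in C22, and its part in the counts of Nab2 was not tested.

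Set against each other within a library and per kilobase, which removes the library scaling, the level of Nab2 was 0.91 ± 0.03 (SD, n = 5) times that of Nab1 in WT-C3 and 0.92 ± 0.10 in WT-C22. It was 2.03 ± 0.33 in C3, 1.56 ± 0.21 in C3-cJunKO and 3.67 ± 0.93 in C22. Controls spanned 0.79 to 1.04, C3 1.65 to 2.56 and C22 2.80 to 5.17, with no overlap among these. The highest ratio, 5.17, was that of C22 at 3 weeks.

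**Figure D2:**
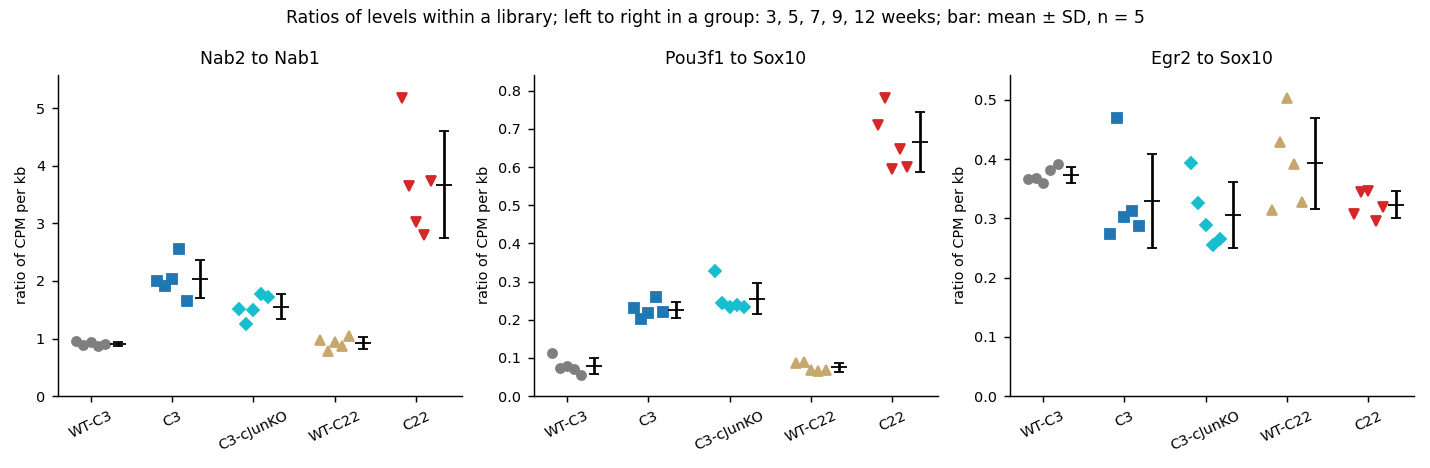
Ratio of CPM per kb between pairs of members in each library, by group, with ages from left to right within a group and mean ± SD (n = 5) beside the points. Nab2 to Nab1 is near 0.9 in both controls and between 2.80 and 5.17 in C22, while the means of Egr2 to Sox10 lie between 0.306 and 0.393 in all groups.

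Egr2, the regulator on which these factors converge, did not pass the threshold in either model with TMM factors. It was at 152, 169, 143, 153 and 166 CPM in WT-C3 and at 165, 305, 182, 244 and 153 CPM in C3, with 2 high C3 libraries at 5 and 9 weeks and the others in or near the control range. In WT-C22 it was at 159, 171, 197, 158 and 127 CPM, and in C22 at 194, 213, 212, 151 and 197 CPM, which overlap. The log2 differences were 0.41 ± 0.16 in C3 (adjusted p = 0.0872) and 0.24 ± 0.12 in C22 (adjusted p = 0.137). With scaling by library size alone Egr2 passed in both models (0.48 in C3, adjusted p = 0.0452, and 0.41 in C22, adjusted p = 0.0142), and in C3 also in a joint fit of all 25 libraries (adjusted p = 0.0438). Of 10 fits per model that each left out 1 library, Egr2 passed in 1 in C3 and in 2 in C22. These were at an adjusted p of 0.0341 without C3 at 12 weeks, and of 0.0483 and 0.0394 without WT-C22 at 7 weeks or C22 at 9 weeks. The adjusted p of the other fits reached 0.208 in C3 and 0.253 in C22.

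Sox10, which marks the Schwann cell lineage, rose in both models by a similar amount. It was at 405, 451, 389, 392 and 413 CPM in WT-C3 and at 589, 634, 588, 764 and 521 CPM in C3. In WT-C22 it was at 496, 391, 384, 395 and 381 CPM, and in C22 at 615, 605, 597, 502 and 601 CPM. Neither model overlapped its control, although WT-C22 at 3 weeks and C22 at 9 weeks came within a few CPM of each other. Sox10 was higher by 0.59 ± 0.10 in C3 (adjusted p = 0.00159) and by 0.51 ± 0.09 in C22 (adjusted p = 0.00123) on the log2 scale.

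Beside Sox10, 2 of 5 markers of the Schwann cell lineage were higher in C3 and the others did not pass, and in C22 3 were higher and 1 lower. Erbb3, the receptor for axonal neuregulin, rose by 0.71 and 1.29 on the log2 scale in C3 and C22, Foxd3, a factor of the neural crest, rose by 0.59 and 0.95, and S100b fell by 1.00 in C22. Of 6 markers of myelinating Schwann cells, 2 were higher and 1 lower in C3, and 1 was higher and 3 lower in C22. Their summed level was 35100 to 53340 CPM in C3 against 53580 to 95810 CPM in WT-C3. In C22 it was 22190 to 33920 CPM against 43480 to 89650 CPM in WT-C22. Beside these marker counts, 23.9% of all genes passed in C3 and 42.4% in C22. The 4 perineurial markers all fell in C22, with sums of 869 to 1115 CPM against 1275 to 1949 CPM. So did the 5 neuronal markers, at 8.57 to 10.9 CPM against 30.1 to 39.6 CPM. All 4 pericyte markers fell too, at 282 to 357 CPM against 455 to 481 CPM, and 3 of 5 endothelial markers were lower. In C3, 3 of 4 perineurial, 2 of 4 pericyte and 1 of 5 endothelial markers were lower and none higher. Of the 5 neuronal markers 3 were lower in C3 and 1 higher. Their part in the levels of the members was not tested.

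Relative to Sox10 in the same library and per kilobase, Pou3f1 was at 0.079 ± 0.021 (SD, n = 5) in WT-C3 and 0.076 ± 0.012 in WT-C22. It was at 0.226 ± 0.021 in C3, 0.256 ± 0.041 in C3-cJunKO and 0.666 ± 0.079 in C22. Egr2 relative to Sox10 averaged between 0.306 and 0.393 in the 5 groups, and C22 (0.295 to 0.347) lay below WT-C3 (0.359 to 0.393) but overlapped WT-C22 (0.314 to 0.503). Relative to Egr2, Pou3f1 was at 0.212 and 0.200 in the controls, at 0.716 in C3 and at 2.07 in C22, so that in C22 the mRNA of Pou3f1 exceeded that of Egr2 per length, at 1.72 to 2.30 in the single libraries.

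Zeb2, a repressor of genes that hold Schwann cells immature, passed the threshold in C22 alone of the 2 models. It was at 271, 276, 217, 245 and 203 CPM in WT-C22 and at 370, 348, 366, 317 and 346 CPM in C22, without overlap, a log2 difference of 0.52 ± 0.09 (adjusted p = 0.00106). In WT-C3 it was at 288, 291, 257, 244 and 249 CPM and in C3 at 392, 332, 324, 212 and 290 CPM, a log2 difference of 0.23 ± 0.14 (adjusted p = 0.266). The one low C3 library is the shallow one at 9 weeks, and without it the difference was 0.34 with an adjusted p of 0.0282. The change of Zeb2 did not pass the test of a difference between the models (0.28 ± 0.17, adjusted p = 0.351).

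Nfatc4, the partner of calcineurin signalling, was at 26.2, 26.4, 27.1, 24.2 and 34.4 CPM in WT-C22 and at 23.9, 19.1, 21.9, 24.3 and 22.3 CPM in C22. The groups overlap by 1 library at 9 weeks, and Nfatc4 fell by 0.32 ± 0.10 on the log2 scale (adjusted p = 0.0247). Without C22 at 5 or at 7 weeks the adjusted p was 0.0567 or 0.0524, and with scaling by library size alone it was 0.289. In C3 and WT-C3 it lay between 17.9 and 26.8 CPM and did not pass the threshold (adjusted p = 0.471). Yy1, a widely expressed activator of Egr2, lay between 82.8 and 103 CPM in all 25 libraries, with log2 differences of -0.04 ± 0.06 in C3 and 0.09 ± 0.06 in C22 that did not pass. With scaling by library size alone the value in C3 was 0.04 and that in C22 0.26, which then passed (adjusted p = 0.00798).

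In C3 against WT-C3, 5 of the 10 members passed an adjusted p of 0.05, 4 of them higher, where 23.9% of all 13993 genes tested passed and 12.5% were higher. In C22 against WT-C22, 7 passed, 5 of them higher, against 42.4% of all genes, with 21.9% higher. Without overlap stood 5 members in C3 and 6 in C22 relative to their controls, where 17.5% and 30.5% of all genes did. The median log2 difference was 0.39 over the members and 0.00 over all genes in C3, and 0.52 and 0.00 in C22. Of all genes that passed, 52.1% in C3 and 51.7% in C22 were higher, and 71.4% and 76% when scaled by library size alone, which moved the median of all genes to 0.08 and 0.17. With that scaling 7 members passed in C3 and 9 in C22, and DESeq2 called 5 and 8. Every member called with TMM factors kept its direction under that scaling.

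**Figure D3:**
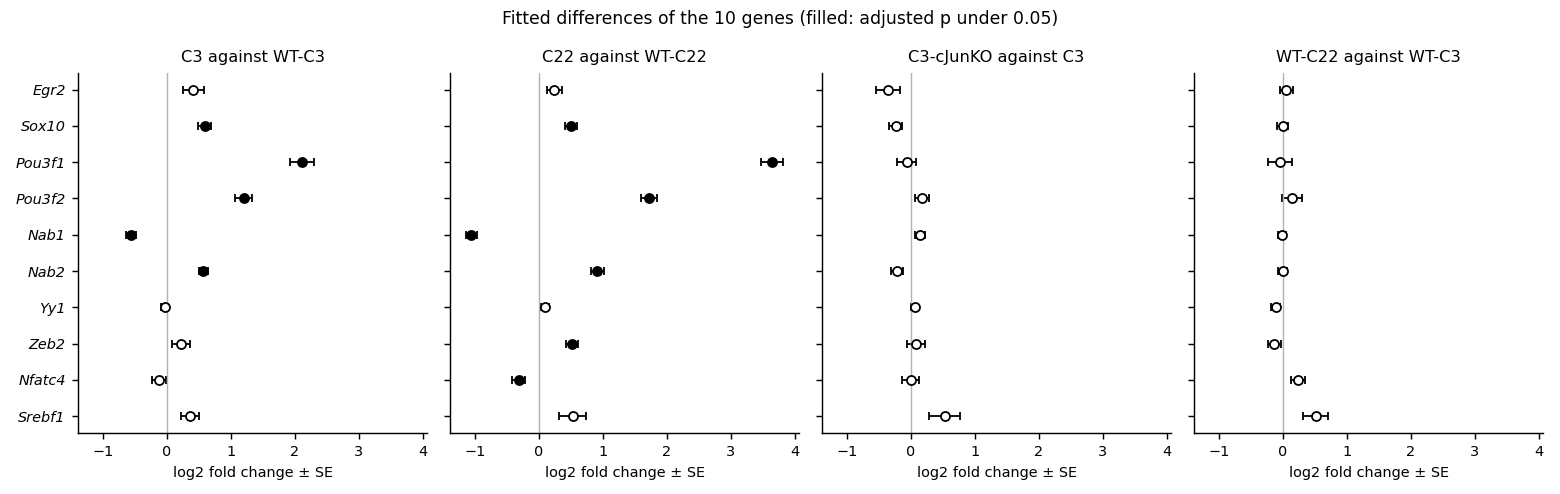
Log2 fold change ± SE of the 10 genes in 4 comparisons (n = 5 libraries per group), with filled points for an adjusted p under 0.05. Pou3f1 stands at 2.11 in C3 and 3.64 in C22, Nab1 lies below 0 in both, and no point is filled for C3-cJunKO against C3 or between the controls.

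The study used both models to ask how changes scale with the number of PMP22 copies. The change in C22 was tested against that in C3 in 1 fit of the 4 groups, and 2 members differed, where 12.1% of all genes did. Pou3f1 rose more in C22, by 1.51 ± 0.26 on the log2 scale (adjusted p = 0.000525), and Nab1 fell more, by -0.52 ± 0.11 (adjusted p = 0.00437). The differences of Pou3f2 (0.50 ± 0.19) and Nab2 (0.33 ± 0.12) both had an adjusted p of 0.0929. Sox10 (-0.10 ± 0.13) and Egr2 (-0.19 ± 0.22) did not pass. Copy number, strain and the integration of the transgene cannot be told apart in this comparison.

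The controls give the background of strain. WT-C22 and WT-C3 differed in 0 of the 10 members by edgeR at an adjusted p of 0.05, where 21.7% of all genes passed. Of the members 2, Nfatc4 and Srebf1, had an unadjusted p under 0.05, and DESeq2 called 1, Srebf1. No member separated the controls without overlap, against 16.9% of all genes. Pou3f1 averaged 37.3 ± 10.0 CPM in WT-C3 and 36.1 ± 8.7 CPM in WT-C22 (SD, n = 5), and Nab1 averaged 133 ± 2 and 132 ± 9 CPM.

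Deletion of c-Jun in the Schwann cells of C3 mice asks which changes need this factor, which is known to oppose Egr2 and to drive the repair state. None of the 10 members passed the threshold between C3-cJunKO and C3 by edgeR, where 0.55% of all genes did. Sox10, Nab2 and Srebf1 had an unadjusted p under 0.05, DESeq2 called 0, and no member was free of overlap, against 2.25% of all genes. With age as a block, since libraries of the same age in these groups deviated together, 273 instead of 77 genes passed and again 0 members. Pou3f1 was at 195, 140, 136, 165 and 133 CPM in C3-cJunKO, all within the range of C3, with a log2 difference of -0.06 ± 0.15. Egr2 was at 207, 165, 150, 156 and 134 CPM, with a log2 difference of -0.36 ± 0.18 from C3 (adjusted p = 0.690).

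The log2 differences between C3-cJunKO and C3 were -0.24 ± 0.10 for Sox10, -0.22 ± 0.09 for Nab2, 0.15 ± 0.08 for Nab1, 0.17 ± 0.11 for Pou3f2 and 0.53 ± 0.24 for Srebf1. None of these passed, and the C3 libraries used here also enter the comparison of C3 with WT-C3. Sox10 was at 516, 497, 507, 596 and 494 CPM in C3-cJunKO, below C3 of the same age at all 5 ages. Nab2 was at 106, 84.9, 98.1, 112 and 107 CPM, below C3 at 4 of 5 ages, and Nab1 at 106, 103, 99.3, 96.0 and 94.4 CPM, above C3 at all 5.

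Against WT-C3, 7 members passed in C3-cJunKO, where 21.5% of all genes did, and 5 did not overlap, against 16.3%. This comparison shares the WT-C3 libraries with that of C3. Pou3f1 was higher by 2.05 ± 0.17 on the log2 scale (adjusted p = 9.20e-06), Pou3f2 by 1.36 ± 0.14, Srebf1 by 0.89 ± 0.21, Nab2 and Sox10 by 0.35 ± 0.08 each and Zeb2 by 0.30 ± 0.09, and Nab1 was lower, at -0.41 ± 0.06. The call of Zeb2 was lost in 6 of the 10 fits that left out a library, at adjusted p values of up to 0.0829.

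In the order of the groups, Pou3f1 averaged 450 ± 71 CPM (SD, n = 5) in C22, 163 ± 38 in C3, 154 ± 26 in C3-cJunKO, 37.3 ± 10.0 in WT-C3 and 36.1 ± 8.7 in WT-C22. C3 and C3-cJunKO, and both controls, were neighbours whose difference was within their spread. Nab1 ran from 133 and 132 CPM in the controls through 99.8 ± 4.9 in C3-cJunKO and 89.9 ± 9.3 in C3 to 63.8 ± 6.7 in C22.

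Srebf1 was the only member called for age by the spline, and in 2 groups. In C3-cJunKO it was at 192, 262, 279, 342 and 504 CPM, and in WT-C22 at 206, 169, 205, 245 and 397 CPM. In both groups the 12-week library was the highest. A natural spline of age with 3 degrees of freedom called Srebf1 in these groups (adjusted p = 0.00717 and 0.0124), where 3.38% and 2.86% of 15298 genes were called. The linear slopes were 0.15 ± 0.02 and 0.11 ± 0.02 log2 units per week (adjusted p = 0.00157 and 0.00591), where 5.97% and 7.77% of genes were called. Without the library of 12 weeks the slopes were 0.13 (adjusted p = 0.134) and 0.05 (adjusted p = 0.557). The call of the linear slope was lost in both groups, with a slope close to that of all 5 ages in C3-cJunKO and a smaller one in WT-C22. The spline was not refitted without these libraries.

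In the other groups Srebf1 was at 188, 170, 193, 145 and 160 CPM (WT-C3), at 193, 168, 199, 283 and 263 CPM (C3) and at 263, 344, 374, 396 and 391 CPM (C22). WT-C3 had the lowest levels and no call of age, and C22 was above WT-C22 at 4 of 5 ages. The comparison of C22 with WT-C22 gave 0.53 ± 0.21 (adjusted p = 0.0624), which became 0.77 (adjusted p = 0.00150) without the WT-C22 library of 12 weeks. Without C22 at 3 weeks it also passed (adjusted p = 0.0417), and the adjusted p of the other such fits reached 0.130. With all libraries kept it passed by DESeq2 (adjusted p = 0.028), with age as a block (0.0144) and with scaling by library size alone (0.0206). In C3 the log2 difference was 0.36 ± 0.14 (adjusted p = 0.0834), with ratios of 1.03, 0.99 and 1.04 up to 7 weeks and 1.95 and 1.65 at 9 and 12 weeks. The C3 library of 9 weeks is the shallowest, and that of 12 weeks had the highest muscle marker sum of C3, at 5183 CPM. Srebf1 in C3 passed with scaling by library size alone (adjusted p = 0.0445) and without C3 at 5 weeks (adjusted p = 0.0420). The adjusted p of the other fits that left out a library reached 0.178.

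Srebf1 is also strong in fat, and the summed adipocyte markers were higher at later ages in the same groups. The sum of Adipoq, Plin1, Cidec, Lep, Fabp4 and Retn was 507, 897, 1060, 1255 and 1959 CPM from 3 to 12 weeks in C3-cJunKO and 1006, 1185, 2216, 2424 and 2984 CPM in WT-C22. In C3 it ran from 263 to 1454 CPM, in C22 from 1112 to 2828 CPM and in WT-C3 from 882 to 1713 CPM, with its peak at 7 weeks. None of the 6 markers was at 0 in any library. The part of fat in the level of Srebf1 was not tested.

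**Figure D4:**
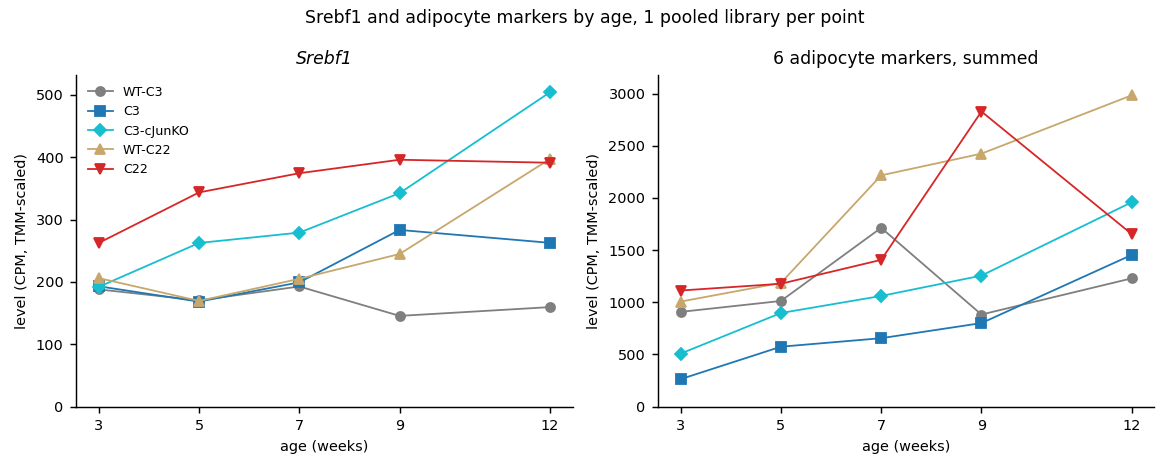
Left, Srebf1 level, and right, the summed level of 6 adipocyte markers, both in CPM (TMM-scaled, axis from 0) against age in weeks, 1 point per pooled library. In C3-cJunKO and WT-C22 both panels end at their highest value at 12 weeks, 504 and 397 CPM for Srebf1.

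No other member had an effect of age at an adjusted p of 0.05 by the spline in any of the 5 groups, and no member had a time course that differed between a model and its control or between C3-cJunKO and C3. Across all genes 0.693% were called for age in WT-C3, 2.27% in C3 and 0.752% in C22, and 0.0261%, 0.0523% and 0.0588% had time courses that differed in these 3 comparisons. Pou3f1 was at 53.4 CPM at 3 weeks and 27.1 CPM at 12 weeks in WT-C3 and at 49.1 and 30.3 CPM in WT-C22, with slopes of -0.10 ± 0.03 (adjusted p = 0.0575) and -0.08 ± 0.03 (adjusted p = 0.0747) log2 units per week that did not pass. The spline of Pou3f1 had adjusted p values of 0.0900 and 0.0722 in these groups. In C3 the slope was 0.00 ± 0.03 and in C22 -0.04 ± 0.03.

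The genes around these factors were described by lists written from general knowledge, with values given on the log2 scale. Among paralogs of the members, 10 of 13 were tested, and in C3 3 were higher and 1 lower, in C22 4 each. Among all genes 23.9% passed in C3 and 42.4% in C22. Egr3, an immediate early relative of Egr2, rose by 1.85 ± 0.28 in C3 and 2.23 ± 0.26 in C22 on the log2 scale. Sox8, the closest relative of Sox10, rose by 0.71 ± 0.17 and 1.42 ± 0.09, and more in C22 than in C3 (0.70 ± 0.20, adjusted p = 0.026). Sox9 fell, at -0.36 ± 0.09 and -0.81 ± 0.12. Nfatc2, a relative of Nfatc4, fell in C22, at -0.82 ± 0.10, and had -0.26 ± 0.11 in C3, which did not pass. Srebf2, the regulator of cholesterol synthesis, fell, at -0.51 ± 0.08, in C22 and had -0.08 ± 0.09 in C3.

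Among 17 chromatin cofactors, 6 were higher in C3 and 8 in C22, and the others did not pass, where 12.5% and 21.9% of all genes were higher and 23.9% and 42.4% passed in either direction. Their medians were 0.13 and 0.21, and that of all genes 0.00. They include Chd4, a subunit of the NuRD complex that NAB proteins recruit (0.52 ± 0.09 and 0.78 ± 0.07), and Smarca4, the motor of the BAF complex (0.41 ± 0.07 and 0.47 ± 0.06). Kdm6b, a demethylase of H3K27, rose by 0.83 ± 0.15 and 1.05 ± 0.10, and Ezh2, which writes that mark, by 0.52 ± 0.15 and 0.72 ± 0.14. Hdac1, Hdac2 and Hdac3 passed in neither model, with values of -0.06 to 0.21.

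Of 22 myelin genes known as targets of EGR2 and SOX10, 4 were higher and 6 lower in C3. In C22 2 were higher and 10 lower, where 23.9% of all genes passed in C3 and 42.4% in C22. The medians of the targets were -0.12 and -0.28. Ugt8a, which makes the galactolipids of myelin, fell, at -1.33 ± 0.22 in C3 and -2.43 ± 0.27 in C22. The endogenous mouse Pmp22 fell, at -1.16 ± 0.16 and -2.42 ± 0.23. Drp2, a periaxin partner of the outer Schwann cell membrane, fell, at -0.46 ± 0.11 in C3 and -2.48 ± 0.21 in C22, and the difference of -2.04 ± 0.24 passed (adjusted p = 8.7e-06).
Among the targets that rose, Mag, which sits at the inner face of myelin, had 0.52 ± 0.16 and 0.70 ± 0.16, and Gldn, which clusters sodium channels at the node, had 0.55 ± 0.13 in C3 and -0.24 ± 0.13, which did not pass, in C22, a difference of -0.81 ± 0.20 (adjusted p = 0.00973). In the test of the difference 1 of the 22 targets was higher and 9 were lower, where 12.1% of all genes passed. Mouse Pmp22 is close in sequence to the human transgene, and how reads of the 2 were split is set by the alignment.

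Of 17 inhibitors of myelination and genes of immature Schwann cells, 15 were tested. In each model 8 were higher, with 1 lower in C3 and 2 in C22. The shares of all genes that passed were 23.9% in C3 and 42.4% in C22. Sox2, which holds Schwann cells undifferentiated, rose by 1.20 ± 0.10 and 1.54 ± 0.15. Id2, an inhibitor of basic helix-loop-helix factors, rose by 1.20 ± 0.16 and 2.26 ± 0.18, and Ngfr, the p75 receptor of immature and repair Schwann cells, by 1.78 ± 0.13 and 1.12 ± 0.16. Jun rose by 0.90 ± 0.10 and 1.41 ± 0.16. Ednrb, an endothelin receptor, rose by 1.499 ± 0.25 and 1.43 ± 0.16. Cdh2 fell, at -0.83 ± 0.08 and -0.97 ± 0.08, and Hey2, a Notch effector, fell in C22, at -1.003 ± 0.35. In C3-cJunKO against C3, 2 of these genes passed, both lower, Jun at -1.90 ± 0.09 and Ngfr at -1.07 ± 0.10.

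**Figure D5:**
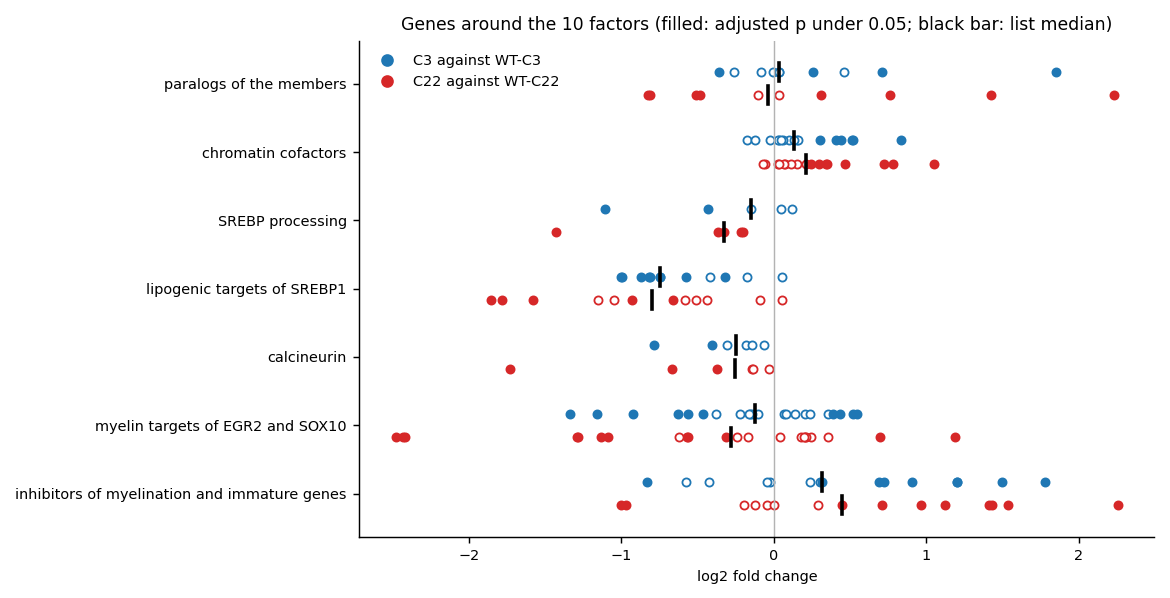
Log2 fold change of each tested gene of 7 lists in C3 against WT-C3 (blue) and C22 against WT-C22 (red), with filled points for an adjusted p under 0.05 and a black bar at the list median. Chromatin cofactors hold filled points on the higher side only, and lipogenic targets, SREBP processing and calcineurin on the lower side only.

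Srebf1 itself had 0.36 in C3 and 0.53 in C22, neither of which passed in the reported fit. Of 12 lipogenic genes that SREBP1 is known to control, 8 were lower in C3 and 5 in C22, and the others did not pass. Over all genes 23.9% and 42.4% passed in either direction. The medians of the 12 genes were -0.75 and -0.80, and those of all genes 0.00. The 6 adipocyte markers had medians of -0.69 in C3 and -0.32 in C22, and none of these markers passed. The part of fat in the levels of the lipogenic genes was not tested. Elovl6, an elongase of fatty acids, fell, at -0.99 ± 0.20 and -1.85 ± 0.18, as did Fads2, a desaturase, at -0.81 ± 0.16 and -1.78 ± 0.14. Scd1, another desaturase, fell in C3, at -1.004 ± 0.21, and had -0.51 ± 0.53 in C22, which did not pass. Fasn, the fatty acid synthase, had -0.74 ± 0.30 and -0.44 ± 0.54 and did not pass. Of the 5 genes that process SREBP or hold it back, 2 were lower in C3 and all 5 in C22, among them Insig1 at -1.11 ± 0.12 and -1.43 ± 0.24. In C3-cJunKO against C3, Me1 alone of the 12 lipogenic genes passed, higher by 1.28 ± 0.21. The adipocyte markers had a median of 0.68 in that comparison, and none of them passed.

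Among 6 genes of calcineurin and its regulators, which act on NFATC4, 2 were lower in C3 and 3 in C22, and the others did not pass, where 23.9% and 42.4% of all genes passed in either direction. Rcan2 fell, at -0.78 ± 0.20 and -1.73 ± 0.15, as did Rcan1, at -0.40 ± 0.12 and -0.67 ± 0.09. Both are inhibitors of calcineurin.

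Over the 25 libraries, which differ in group and age at once, the levels of the POU factors, Nab1, Nab2 and Sox10 followed each other most closely. On the log2 CPM scale the Pearson correlation of Pou3f1 was 0.94 with Pou3f2, 0.93 with Nab2, 0.84 with Sox10 and -0.94 with Nab1. Egr2 had 0.62 with Sox10 and 0.45 with Pou3f1, and Yy1 had 0.35 with Zeb2 and -0.58 with Nfatc4. Among 11716 genes with a mean of at least 5 CPM, those most like Pou3f1 were Gypc (0.99), Cuedc2 (0.98) and Cerk (0.98), and those most like Nab2 were Plekhg5, Erf and Dazap1 (0.94 each). Tab1 (0.94), Wdr83 and Map7d1 (0.94 each) were most like Sox10, Rtkn (0.77), Smtn and Fstl3 (0.73 each) most like Egr2, and Cluh (0.88), Flad1 and Mccc1 (0.86 each) most like Srebf1.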

How the data were processed

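Poly(A) RNA of the sciatic nerve was sequenced by the authors in 25 libraries. The authors trimmed reads with cutadapt 2.10, aligned them with STAR 2.7.5a to GRCm39 with the human transgene locus of GRCh38 added, deduplicated with UMI-tools 1.1.1, and deposited raw counts per gene from HTSeq 0.12.4 (Ensembl annotation, strand setting not given in the sources used here). Unassigned lines without a gene (8.12% to 12.11% per library) were left out. Counts were analysed here with edgeR 4.0.16 in R 4.3.3: genes with log2 CPM above 1 in at least 7 libraries, TMM factors, and quasi-likelihood tests with group as the only term, on 13993 genes. Age used a natural spline (3 degrees of freedom) or a slope in 1 fit (5 and 15 residual degrees of freedom). Printed CPM use TMM factors of all libraries. Scripts were tested on simulated data. DESeq2 1.42.0 was an alternative, as were other scalings, filters, 1 joint fit, age as a block and leaving out libraries. The members, the lists and the motifs were chosen with earlier results of these data known. All members are named in each comparison, with, from each list, genes past the threshold with large changes and, for 5 members, the 3 most correlated genes. Libraries of the same age are separate pools. Their deviations from the group means correlated at over 0.1 at every age only between C3-cJunKO and C3 (0.12 to 0.61), a pairing seen in the data and not given by the labels. Between the controls the correlations were 0.34, 0.65, 0.15, 0.54 and 0.05 from 3 to 12 weeks. Replicates are pools of different ages, so p-values rest on a spread that holds change with age as well as differences between pools. Values of some listed genes, large changes among them, are not reported here.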

Additional observations from a re-analysis of the deposited data

Results flagged for a closer look

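In 8 of 50 sets of 5 libraries (10 genes in 5 groups), 1 library stood apart from the other 4 by Dixon's test at 0.710, a test that chance meets in about 1 of 20 sets. Sox10 was highest in C3-cJunKO at 9 weeks (596 CPM, next 516), highest in WT-C22 at 3 weeks (496 CPM, next 395) and lowest in C22 at 9 weeks (502 CPM, next 597). Pou3f1 was highest in C3 at 9 weeks (229 CPM, next 157), the shallowest library, and Pou3f2 was highest in C3 at 3 weeks (32.4 CPM, next 27.1). In WT-C22 at 12 weeks Nab1 was lowest (117 CPM, next 132) and Nfatc4 highest (34.4 CPM, next 27.1), and Nfatc4 was also highest in C3-cJunKO at 12 weeks (27.5 CPM, next 20.6). These 2 libraries of 12 weeks also had the highest Srebf1 and adipocyte marker sums of their groups. Their part in these levels was not tested.

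The change with additional PMP22 differed between the models for Pou3f1, by 1.51 on the log2 scale, and for Nab1, by -0.52, in a test of the difference itself over the 4 groups.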

How the results depend on the processing

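Of 408 alternative values of the 23 member differences and slopes that passed, 395 passed again in the same direction and 13 no longer passed. Those 13 belong to Nfatc4 in C22, Zeb2 in C3-cJunKO against WT-C3 and the slopes of Srebf1, and the cause was not tested. Leaving out single libraries gave 5 to 6 members called in C3, 6 to 8 in C22, 2 to 3 for the difference between the models, 0 in C3-cJunKO against C3, 6 to 7 in C3-cJunKO against WT-C3 and 0 to 1 between the controls. The difference between the models called 4 members with scaling by library size alone, and the controls 1 (Srebf1) by DESeq2 and 1 without the filter. A fit without the shallow library and 4 libraries with muscle markers, chosen after seeing the data, called 6, 7, 2, 0, 7 and 0 members in the same order of comparisons, with Zeb2 added in C3 (0.43, adjusted p = 0.0167).

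With age as a replicate block, the difference between the models also called 4 members, Pou3f2 (0.52) and Nab2 (0.33) being added, and Srebf1 was added in C22 (0.58). All genes called were 3691 in C3, 6170 in C22, 2052 for the difference, 3359 in C3-cJunKO against WT-C3 and 3721 between the controls. By the labels, paired libraries share only an age in every comparison. Correlations of their deviations ran from -0.22 in C3 against WT-C3 to 0.65 between the controls, both at 5 weeks.

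The values that changed sign had not passed in the reported fit. Under library size alone these were Yy1 in C3 (0.038) and Sox10 in the difference between the models (0.013). In C3-cJunKO against C3, Nfatc4 was 0.011 without the filter and, without the 5 libraries named above, Pou3f1 was 0.034, Zeb2 -0.088 and Nfatc4 0.099. Between the controls, Sox10 and Nab2 were 0.00073 and 0.0022 with median-ratio factors, 0.00075 and 0.0062 by DESeq2, 0.0023 and 0.0043 with filterByExpr, 0.033 and 0.036 without the filter (Nab1 0.025) and 0.049 and 0.038 without those libraries. Leaving out single libraries gave -0.27 to 0.00069 for Egr2 in the difference between the models and -0.049 to 0.11 in C3-cJunKO against WT-C3. In C3-cJunKO against C3 it gave -0.15 to 0.0753 for Pou3f1, -0.028 to 0.18 for Zeb2 and -0.12 to 0.051 for Nfatc4. Between the controls it gave -0.024 to 0.13 for Egr2, -0.0785 to 0.033 for Sox10, -0.19 to 0.12 for Pou3f1, -0.026 to 0.031 for Nab1 and -0.039 to 0.041 for Nab2. The slope of Pou3f1 ran from -0.024 to 0.073 in C3 and from -0.047 to 3.1e-05 in C3-cJunKO. The lowest count of a member was 56, for Nfatc4 in the shallowest library, and with 1 pool per age the spread between pools of 1 age is unknown.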
